A study of Mus musculus with 24 samples.

Results

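The genes that control mitochondrial biogenesis were examined in RNA-seq data from the striatum of R6/1 mice, a Huntington's disease model, and of their wild type littermates. Chosen by name, 10 genes were followed, all found among the 24340 genes shared by the 6 deposited tables: the coactivators Ppargc1a, Ppargc1b and Pprc1, the nuclear receptors Esrra, Esrrg, Ppara and Ppard, the nuclear respiratory factors Nrf1 and Gabpa, and the mitochondrial DNA factor Tfam. R6/1 mice carry a transgene with the first exon of human HTT and an expanded CAG repeat, here hemizygous on a C57BL/6J background, and R6/1 is a single transgenic line. All mice were male. The groups were WT-vehicle (5 libraries), R6/1-vehicle (6), WT-RGFP109 (6) and R6/1-RGFP109 (7). Treated mice, aged 11 to 14 weeks at the start, received 5 weekly injections of 30 mg/kg RGFP109, an inhibitor of the histone deacetylases HDAC1 and HDAC3, for 3 weeks. The vehicle groups received the solvent alone, and tissue was taken 18 h after the last injection, at 14 to 17 weeks.

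Mitochondria are built from proteins encoded mostly in the nucleus, and their genes are coordinated by a small network. PGC-1 alpha, the product of Ppargc1a, binds no DNA itself but is recruited by transcription factors, among them the estrogen-related receptors, the peroxisome proliferator-activated receptors (PPARs), NRF1 and GABPA, and raises the transcription of respiratory chain and fatty acid oxidation genes. NRF1 and GABPA in turn activate Tfam, whose product enters the organelle to package and transcribe its genome. The network has long been of interest in Huntington's disease because mutant huntingtin has been reported to interfere with transcription of PPARGC1A in the striatum.

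The deposited tables hold 1 FPKM value per group (fragments scaled by transcript length and by the number of mapped fragments) and no value per mouse, and the authors' own test columns in them were not used. No spread between mice, standard error or test was therefore computed for any of the 10 genes. Library depth is unknown as well, and all differences below compare group values. They are given as log2 ratios after adding 0.05 FPKM, and a gene was counted as past the minimum when its absolute log2 ratio was above 0.5, among genes with a mean of at least 1 FPKM over both groups. Each group appears in 3 tables, scaled by a common factor that differed by 0.132% to 3.77% between tables and held to within 0.678% for every gene above 1 FPKM.

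The tissue label was checked against marker genes. All 8 markers of striatal projection neurons were at or above 1 FPKM in every group, with a summed level of 3192 FPKM for WT-vehicle against 1231 for R6/1-vehicle, and of 3072 for WT-RGFP109 against 1108 for R6/1-RGFP109. Interneuron markers summed to 955, 504, 926 and 499 FPKM in the same order of groups, oligodendrocyte markers to 4101, 2252, 3207 and 2560, and astrocyte markers to 292, 225, 303 and 225. Markers of neighbouring tissue differed between the groups as well. The 5 choroid plexus markers summed to 1474, 625, 319 and 38.8 FPKM, and the 6 neocortex markers to 351, 193, 325 and 247 FPKM. The part of these differences in the results below was not tested, and in bulk tissue fewer cells of a type and less RNA per cell cannot be told apart.

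The letters before the annotated starts are shown for the members whose promoters carried a site of another member. In the RefSeq table for GRCm38.p6, the assembly of mm10, 9 of the 10 genes had an entry. The 250 bases before each start were searched on both strands for the NRF1 site (the capitals in the Ppara window, with any base allowed at the fifth position), the estrogen-related receptor half-site AAGGTCA, the GABPA site CCGGAAGT, which belongs to the ETS family, and the CREB site TGACGTCA. Capitals mark a match. The Tfam window, chr10:71238045-71238294 on the minus strand, has 1 GABPA site that begins 47 bases before the start, and the Ppara window, chr15:85735526-85735775 on the plus strand, has 1 NRF1 site that begins 31 bases before it.
Tfam: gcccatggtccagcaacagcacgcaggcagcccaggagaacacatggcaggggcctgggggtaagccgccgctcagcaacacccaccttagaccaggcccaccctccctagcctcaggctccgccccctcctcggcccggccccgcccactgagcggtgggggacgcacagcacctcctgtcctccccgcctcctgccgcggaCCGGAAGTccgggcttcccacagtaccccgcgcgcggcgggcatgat
Ppara: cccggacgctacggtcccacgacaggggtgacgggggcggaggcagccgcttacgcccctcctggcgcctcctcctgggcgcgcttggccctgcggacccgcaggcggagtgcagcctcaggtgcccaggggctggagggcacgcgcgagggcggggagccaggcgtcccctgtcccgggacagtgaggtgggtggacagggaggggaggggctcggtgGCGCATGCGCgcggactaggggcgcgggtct
Such matches were uncommon, since 2.88% of the 32851 windows of this length held the GABPA site, 3.74% the NRF1 site, 4.08% the receptor half-site and 1.55% the CREB site. The remaining windows of the members held none of these letters, which says nothing about binding elsewhere. The start used for Tfam coincides with the edge of its deposited locus. That for Ppara lies 212 bases inside the edge, so that its marked site is within the deposited locus, and that for Ppargc1a lies 13804 bases upstream of its locus. The only starts for Gabpa and Ppard lie 7253 and 105403 bases inside their loci. In all, 5 of the 13 windows of the members had a start within 1 base of the locus edge, so the others need not be the promoters of the measured transcripts.

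All 10 genes were expressed in the striatum, over a wide range. Averaged over the 4 groups, Esrra had 28.2 FPKM, Tfam 10.7, Nrf1 7.17, Ppard 7.0, Ppargc1a 6.76, Pprc1 6.13, Gabpa 6.07, Esrrg 4.08, Ppargc1b 2.61 and Ppara 1.05 FPKM. Because FPKM is scaled by length, these levels are set side by side, but other influences on the level of a gene were not tested. The loci of Esrra, Esrrg, Ppard and Gabpa overlap other genes, whose reads cannot be told apart from theirs. The group values of Esrra and Tfam did not overlap with those of any other member, nor did those of Esrrg, Ppargc1b and Ppara. The 5 genes from Nrf1 to Gabpa formed a run in which each gene's range over the groups overlapped with that of the next. Within families, Ppargc1a exceeded Ppargc1b by 2.59 times, Esrra exceeded Esrrg by 6.91 times and Ppard exceeded Ppara by 6.65 times. The missing members of these families were low, with Esrrb at 0.410 and Pparg at 0.786 FPKM in WT-vehicle.

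**Figure D1:**
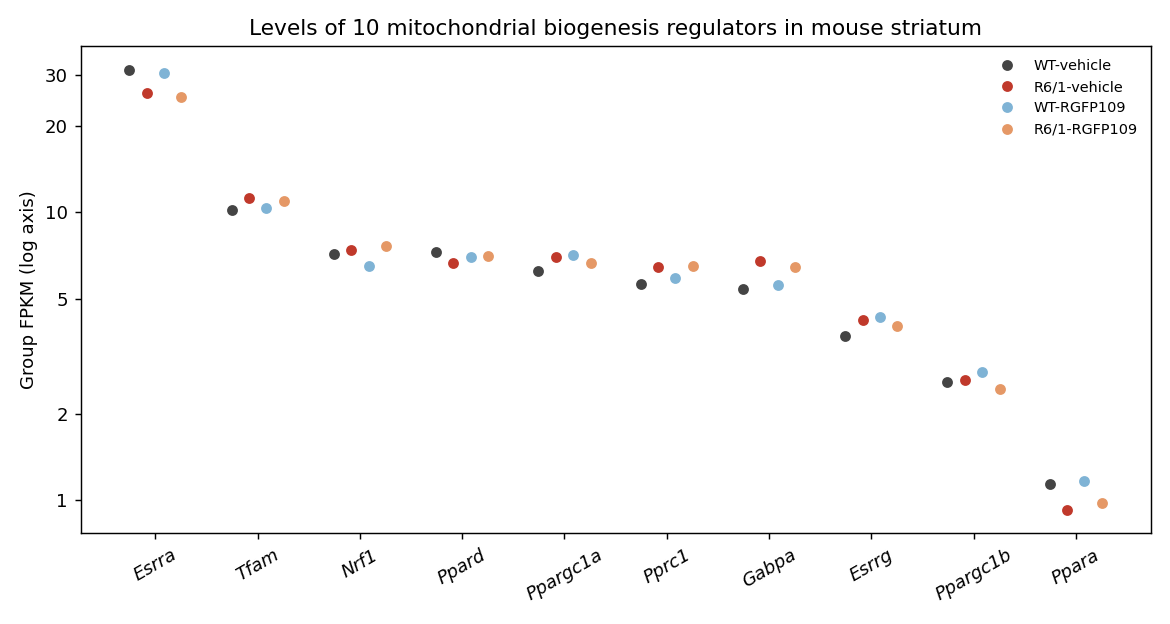
Group FPKM (log axis) of the 10 genes, ordered by their mean; each point is the mean of the 3 scaled values of a group and the line behind it, mostly hidden by the point, their range over tables. Levels run from Esrra at 25.1 to 31.3 FPKM down to Ppara at 0.928 to 1.17 FPKM, and the 4 groups of a gene lie close together.

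The groups differed little for any of these genes. The ratio of the highest to the lowest group was between 1.09 for Ppard and 1.25 for Esrra and for Ppara, after adding 0.05 FPKM, while the median over 13715 genes was 1.20. None of the 10 genes was past the minimum in any of the 5 comparisons made. For R6/1-vehicle against WT-vehicle, 14.3% of all genes were past it, 12.3% for R6/1-RGFP109 against WT-RGFP109, 3.00% for R6/1-RGFP109 against R6/1-vehicle, 3.90% for WT-RGFP109 against WT-vehicle and 14.1% for R6/1-RGFP109 against WT-vehicle. With so few genes, and at background shares of this size, a count of 0 is no result about the members. At a lower minimum of 0.25, the count was 3 of 10 between the genotypes with vehicle (38.1% of all genes), 2 of 10 with RGFP109 (32.6%), 0 of 9 for treatment in R6/1 mice (6.76%), 0 of 10 for treatment in wild type mice (10.4%) and 1 of 10 for R6/1-RGFP109 against WT-vehicle (37.6%). Both counts between the genotypes include Ppara, which reached a mean of 1 FPKM there only through its higher value in WT mice. Its part in these counts is therefore no result about it.

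The first question was whether the regulators differ by genotype. With vehicle, 6 of the 10 genes were higher and 4 lower in R6/1-vehicle than in WT-vehicle, with a median log2 ratio of 0.063 for the 10 genes and of -0.0067 for all genes. Without regard to direction the median size was 0.15 for the members and 0.19 for 13659 genes. The same comparison in treated mice, R6/1-RGFP109 against WT-RGFP109, rests on other animals and gave 4 higher and 6 lower genes, a median of -0.075 and a median size of 0.16, beside 0.16 over 13651 genes. Of the 10 genes 8 had the same sign in both comparisons, and of all genes 82.8% did. Where both ratios were above 0.1 in size, the signs agreed for 4 of 6 members and for 94.2% of 7524 genes. With 6 members this is a description only.

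**Figure D2:**
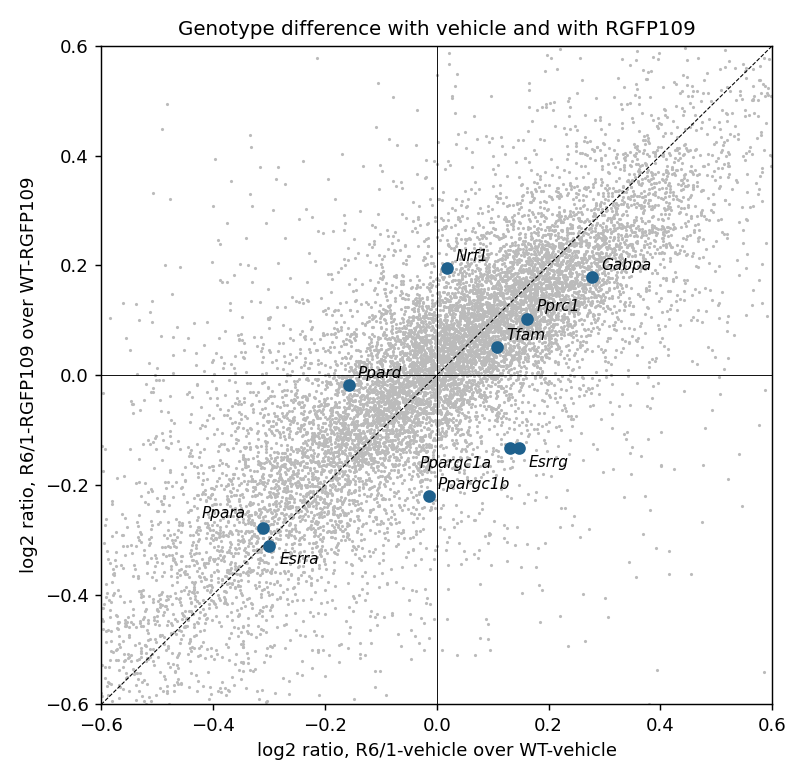
Log2 ratio of R6/1 over WT with vehicle (x axis) and with RGFP109 (y axis), grey for all genes with a mean of at least 1 FPKM in both tables and blue for the 10 regulators; the dashed line marks equal ratios, and genes beyond 0.6 are not drawn. Esrra and Ppara lie near the line at about -0.3 on both axes, Gabpa, Pprc1, Tfam and Nrf1 are above 0 on both, and Ppargc1a and Esrrg are above 0 with vehicle and below 0 with RGFP109.

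Among the coactivators, Ppargc1a (chromosome 5, 51454249 to 51553921 on mm10), whose product PGC-1 alpha is the inducible member of the family, was not lower in R6/1-vehicle. It had 6.31 FPKM in WT-vehicle and 6.92 in R6/1-vehicle, a log2 ratio of 0.13, and 29.5% of all genes had a higher ratio. With RGFP109 the order turned, with 7.23 FPKM in WT-RGFP109 and 6.58 in R6/1-RGFP109 (log2 ratio -0.13). WT-RGFP109 was thus the highest of the 4 groups and WT-vehicle the lowest. Ppargc1b (chromosome 18, 61298136 to 61400431), which encodes the related PGC-1 beta, had 2.61 and 2.58 FPKM with vehicle (log2 ratio -0.014) and 2.82 and 2.42 FPKM with RGFP109 (-0.22) in WT and R6/1 mice, respectively. Its genotype difference was thus near 0 with vehicle and larger with the compound. Pprc1 (chromosome 19, 46056539 to 46072909), the PGC-1 related coactivator known to respond to growth signals, was the member of the family that was higher in R6/1 mice in both settings, with 5.71 and 6.40 FPKM with vehicle (log2 ratio 0.16) and 5.98 and 6.43 FPKM with RGFP109 (0.10).

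The nuclear receptors gave the largest differences on the lower side. Esrra (chromosome 19, 6909698 to 6921808) encodes estrogen-related receptor alpha, an orphan receptor that binds the promoters of many respiratory chain genes and depends on PGC-1 coactivators. Its level was 31.6 FPKM in WT-vehicle and 25.7 FPKM in R6/1-vehicle, lower by 18.8% (log2 ratio -0.30). In treated mice it was 30.8 and 24.8 FPKM, lower by 19.4% (log2 ratio -0.31). Both WT groups were above both R6/1 groups, although 19.2% and 15.7% of all genes had a still lower ratio in these comparisons. The deposited Esrra locus overlaps those of Trmt112 and Mir6990. In the same comparisons the log2 ratios were -0.075 and 0.14 for Trmt112 and -0.021 and 0.36 for Mir6990. Esrrg (chromosome 1, 187609006 to 188214884), the form of the receptor that is typical of neurons and muscle, had 3.76 and 4.17 FPKM with vehicle (log2 ratio 0.15) and 4.39 and 4.01 FPKM with RGFP109 (-0.13), the same order of groups as Ppargc1a.

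Ppara (chromosome 15, 85735564 to 85806851), the receptor for fatty acids that drives their oxidation, was the least expressed member. It had 1.15 FPKM in WT-vehicle and 0.916 in R6/1-vehicle, a log2 ratio of -0.31, and 1.18 and 0.967 FPKM in the treated groups, a log2 ratio of -0.28. At this level the log2 ratio depends on the value added before taking logarithms: with 1 FPKM added, the ratios were -0.17 and -0.15. Ppard (chromosome 17, 28127351 to 28301469), the PPAR found in most tissues, had 7.36 and 6.60 FPKM with vehicle (log2 ratio -0.16) and 7.08 and 6.99 FPKM with RGFP109 (-0.018). Its deposited locus overlaps 4 other genes, of which Zfp523 was the most abundant, at 50.8 and 38.9 FPKM with vehicle (log2 ratio -0.39).

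Gabpa, Tfam and Nrf1 had ratios above 0 in both settings, with that of Nrf1 close to 0 with vehicle. Gabpa (chromosome 16, 84827871 to 84863778), which encodes the DNA-binding subunit of nuclear respiratory factor 2, had 5.50 FPKM in WT-vehicle and 6.68 FPKM in R6/1-vehicle, higher by 21.5% (log2 ratio 0.28), and 13.2% of all genes had a higher ratio. With RGFP109 the levels were 5.67 and 6.42 FPKM (log2 ratio 0.18), so that both R6/1 groups were above both WT groups. Its locus overlaps that of Atp5j, a subunit gene of the ATP synthase with 379 FPKM in WT-vehicle, for which the log2 ratios were -0.14 with vehicle and -0.16 with RGFP109, opposite in sign to those of Gabpa.

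Tfam (chromosome 10, 71225477 to 71238044), whose promoter with the GABPA site is printed above, had 10.3 FPKM in WT-vehicle and 11.1 in R6/1-vehicle (log2 ratio 0.11). In the treated groups it had 10.5 and 10.9 FPKM (0.051). It was higher in R6/1 mice in both settings, by 7.78% and 3.58%. Nrf1 (chromosome 6, 30047988 to 30153458), which encodes nuclear respiratory factor 1, had 7.23 and 7.32 FPKM with vehicle, a log2 ratio of 0.018, and 6.59 and 7.55 FPKM with RGFP109, a ratio of 0.19. It was thus nearly level with vehicle, and the difference with RGFP109 came with the lowest value of the 4 groups in WT-RGFP109.

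**Figure D3:**
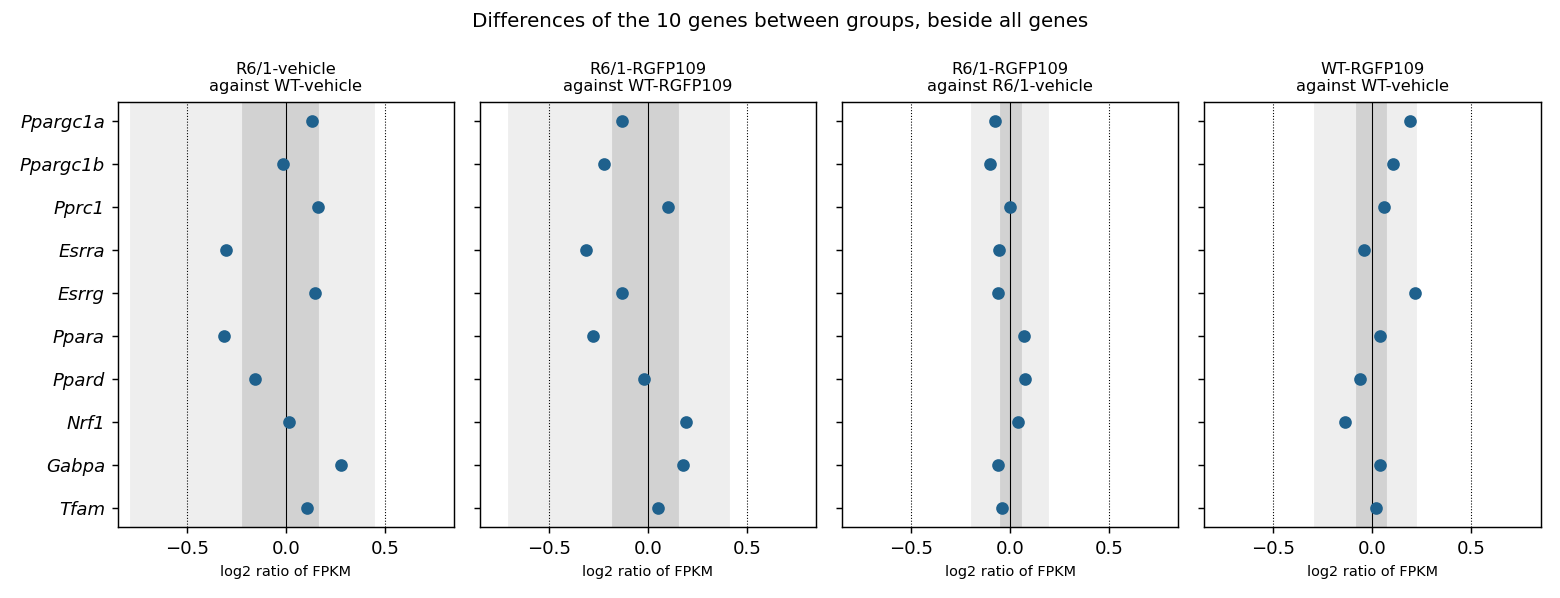
Log2 ratios of group FPKM of the 10 genes (blue points) in 4 comparisons; dark grey spans the interquartile range and light grey the middle 90% of all genes with a mean of at least 1 FPKM, and dotted lines mark ±0.5. No point reaches a dotted line, and the ratios for treatment in R6/1 mice lie within about 0.1 of 0.

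The second question was whether the regulators differ after RGFP109. In R6/1 mice all 10 differences between R6/1-RGFP109 and R6/1-vehicle were small, from -0.10 for Ppargc1b to 0.076 for Ppard on the log2 scale. Of the 9 genes at or above a mean of 1 FPKM, 7 were lower and 2 higher after RGFP109, with a median of -0.055 and a median size of 0.063, beside 0.050 for 13610 genes. Ppara had a mean below 1 FPKM and was left out of these counts (0.949 and 0.997 FPKM, log2 ratio 0.068). Ppargc1a had 7.16 FPKM in R6/1-vehicle and 6.79 in R6/1-RGFP109 in the table of this pair (log2 ratio -0.078), and Ppargc1b had 2.68 and 2.49 FPKM. Esrra had 26.6 and 25.6 FPKM (log2 ratio -0.055), so its group value after RGFP109 was no nearer to those of the wild type groups. For Gabpa the values were 6.91 and 6.62 FPKM (log2 ratio -0.063), and for Pprc1 6.63 and 6.62 FPKM (-0.0011).

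In wild type mice the ratios of WT-RGFP109 to WT-vehicle spanned a wider range, from -0.14 for Nrf1 (6.98 and 6.34 FPKM) to 0.22 for Esrrg (3.63 and 4.23 FPKM). Ppargc1a followed Esrrg, with 6.10 FPKM in WT-vehicle and 6.96 FPKM in WT-RGFP109, higher by 14.1% (log2 ratio 0.19). Of 13621 genes, 5.15% had a ratio above that of Esrrg and 6.67% a ratio above that of Ppargc1a. Ppargc1b was at 0.11, and the other members lay between -0.062 for Ppard and 0.060 for Pprc1. In all, 7 genes were higher and 3 lower, with a median of 0.039. The signs in the 2 genotypes agreed for Esrra and Ppara and differed for the other 8 members, of which Pprc1 was level in R6/1 mice (-0.0011). Among genes with a mean of at least 1 FPKM in both treatment comparisons, the signs agreed for 1 of 9 members and for 49.9% of 13288 genes.

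The difference between the 2 genotype ratios, with RGFP109 minus with vehicle, was -0.26 for Ppargc1a, -0.28 for Esrrg and -0.21 for Ppargc1b on the log2 scale. It was 0.18 for Nrf1 and 0.14 for Ppard, and between -0.10 and 0.032 for the other members. The median size over 13460 genes was 0.086, and 87.4%, 88.5% and 81.7% of the genes had a smaller difference than Ppargc1a, Esrrg and Ppargc1b. Whether any of these differences exceeds the spread between mice was not tested, as no value per mouse was used.

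R6/1-RGFP109 was also set against WT-vehicle, a comparison that shares a group with each of the vehicle and treatment comparisons. Esrra had 31.7 FPKM in WT-vehicle and 24.8 FPKM in R6/1-RGFP109 (log2 ratio -0.35), the largest difference of any member in any comparison. The log2 ratio was -0.24 for Ppara and 0.22 for Gabpa, and that of the other 7 genes ranged from -0.12 for Ppargc1b to 0.16 for Pprc1.

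The genes whose group pattern was most like that of Ppargc1a were found by the Euclidean distance over the 4 log2 ratios of genotype and treatment. Esrrg, itself a member, was the fifth nearest of 13714 genes, at a distance of 0.036. Nearer were Snhg18 (0.021), Pcgf5 (0.025), Ntng1 (0.028) and Ttc39c (0.033). In all, 59 genes lay within 0.1. The likeness rests on 4 group values per gene and is a description.

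Genes that act with or upstream of the members were read from lists chosen by function. Of 11 partners and further family members, 9 had a mean of at least 1 FPKM in both genotype comparisons, and 2 of the 9 were past the minimum, both lower in R6/1 mice (background for lower genes 10.3% with vehicle and 8.75% with RGFP109). Rxrg, a retinoid X receptor enriched in striatal projection neurons, had 62.0 FPKM in WT-vehicle and 30.8 in R6/1-vehicle (log2 ratio -1.01), and 49.0 and 27.3 FPKM with RGFP109 (-0.85). Perm1, a muscle-type target and helper of the PGC-1 and estrogen-related receptor pathway, was near the lower limit, with 1.43 and 0.924 FPKM with vehicle (log2 ratio -0.61) and 1.63 and 0.937 FPKM with RGFP109 (-0.76). Both were past the minimum also for R6/1-RGFP109 against WT-vehicle, Rxrg at -1.19 and Perm1 at -0.59 (background for lower genes 10.1%). Perm1 reached the limit of 1 FPKM in these comparisons only through its value in the WT group, the higher one. Its calls are therefore no result about it. Between the 2 R6/1 groups its mean was below that limit (0.957 and 0.966 FPKM). Every marker list, that of the projection neurons included, also had a negative median log2 ratio in both genotype comparisons. The part of cell content in the differences of Rxrg and Perm1 was not tested. Rxrb, another dimer partner of the PPARs, had a log2 ratio of -0.34 with vehicle, and Gabpb1, a partner subunit of GABPA, one of 0.18.

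Of 14 upstream regulators, 0 were past the minimum in either genotype comparison, beside 14.3% of all genes with vehicle and 12.3% with RGFP109. The largest ratios with vehicle were 0.44 for Sirt1, the deacetylase that activates PGC-1 alpha (3.57 and 4.85 FPKM), 0.35 for the corepressor gene Ncor1, -0.34 for Crtc1, a CREB coactivator gene, and 0.33 for Creb1, which encodes a factor that binds the PPARGC1A promoter. Sirt1 passed the minimum for R6/1-RGFP109 against WT-vehicle, with a log2 ratio of 0.59 (background for higher genes 3.93%).

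The lists of downstream genes had medians close to 0 between the genotypes. None of the 14 genes of mitochondrial DNA upkeep and transcription or the 16 nuclear respiratory chain genes was past the minimum in any comparison. The same held for the 9 genes of the tricarboxylic acid (TCA) cycle and the 8 antioxidant genes. Between 3.00% and 14.3% of all genes were past the minimum in the 5 comparisons. Whether these lists differ from that share was not tested. For R6/1-vehicle against WT-vehicle the medians of these lists were -0.014, 0.023, 0.019 and -0.078, and for R6/1-RGFP109 against WT-RGFP109 they were 0.043, 0.0072, -0.018 and 0.024. Within the lists single genes differed in both directions with vehicle. In the respiratory chain Cox5b, a subunit of cytochrome c oxidase, had a log2 ratio of -0.28 and Sdha, of succinate dehydrogenase, 0.23. In the TCA cycle the ratio was 0.22 for Idh3a, of isocitrate dehydrogenase. For mitochondrial DNA it was -0.32 for the topoisomerase gene Top1mt and 0.23 for Mterf3, and among antioxidant enzymes 0.39 for the mitochondrial superoxide dismutase gene Sod2 and -0.34 for the catalase gene Cat.

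Of 15 genes of fatty acid oxidation, many of them PPAR targets, 8 were above 0 and 7 below 0 in both genotype comparisons, with medians of 0.059 with vehicle and 0.0072 with RGFP109. Cpt1a, the enzyme that commits fatty acids to mitochondrial import, had a ratio of -0.30 with vehicle. Of 13 genes of protein import, fusion and fission, 0 were past the minimum with vehicle, beside 14.3% of all genes. There Dnm1l, the fission GTPase, had a ratio of 0.45 and Tomm70a, an import receptor, -0.35. In R6/1 mice Timm23, of the inner membrane import channel, was past the minimum after RGFP109, with 1.27 and 0.786 FPKM (log2 ratio -0.66), close to the lower limit of 1 FPKM (background for lower genes 1.43%). Timm23 reached that limit here only through its value in R6/1-vehicle, the higher of these groups, so the call is no result about it. In the comparison of the treated with the untreated wild type mice its mean was below that limit. Of the 13 genes, 12 reached the limit in each comparison without R6/1-vehicle.

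Several marker lists had lower medians than any pathway list in both genotype comparisons, such as the interneuron markers at -0.90 with vehicle and -0.99 with RGFP109. Among the 9 pathway lists, that of 4 neuronal genes known to depend on Ppargc1a in interneurons had the lowest medians in both. For R6/1-vehicle against WT-vehicle its median was -0.56 and 2 of the 4 genes were past the minimum on the lower side, beside 10.3% of all genes: Syt2, a presynaptic calcium sensor of fast-spiking cells (9.99 and 5.04 FPKM, log2 ratio -0.98), and Pvalb, the calcium buffer parvalbumin (43.7 and 24.2 FPKM, log2 ratio -0.85). The complexin gene Cplx1 was at -0.27 and the neurofilament gene Nefh at 0.036. With RGFP109 the median was -0.73 and 3 of the 4 were past the minimum, beside 8.75% of all genes, Syt2 at -1.59, Pvalb at -0.95 and Nefh at -0.51. For R6/1-RGFP109 against WT-vehicle, Syt2 was at -1.36 and Pvalb at -0.83 (background 10.1%). Ppargc1a itself, as given above, was at 0.13 and -0.13 in these comparisons. All 5 interneuron markers, of which Pvalb is 1, were past the minimum on the lower side in both, against the same 10.3% and 8.75%, and the part of interneuron content was not tested. In WT-RGFP109 against WT-vehicle all 4 genes were above 0, with a median of 0.20, as were 49.0% of all genes. In R6/1-RGFP109 against R6/1-vehicle 2 were above and 2 below 0, with a median of -0.088 and Syt2 lowest at -0.38.

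**Figure D4:**
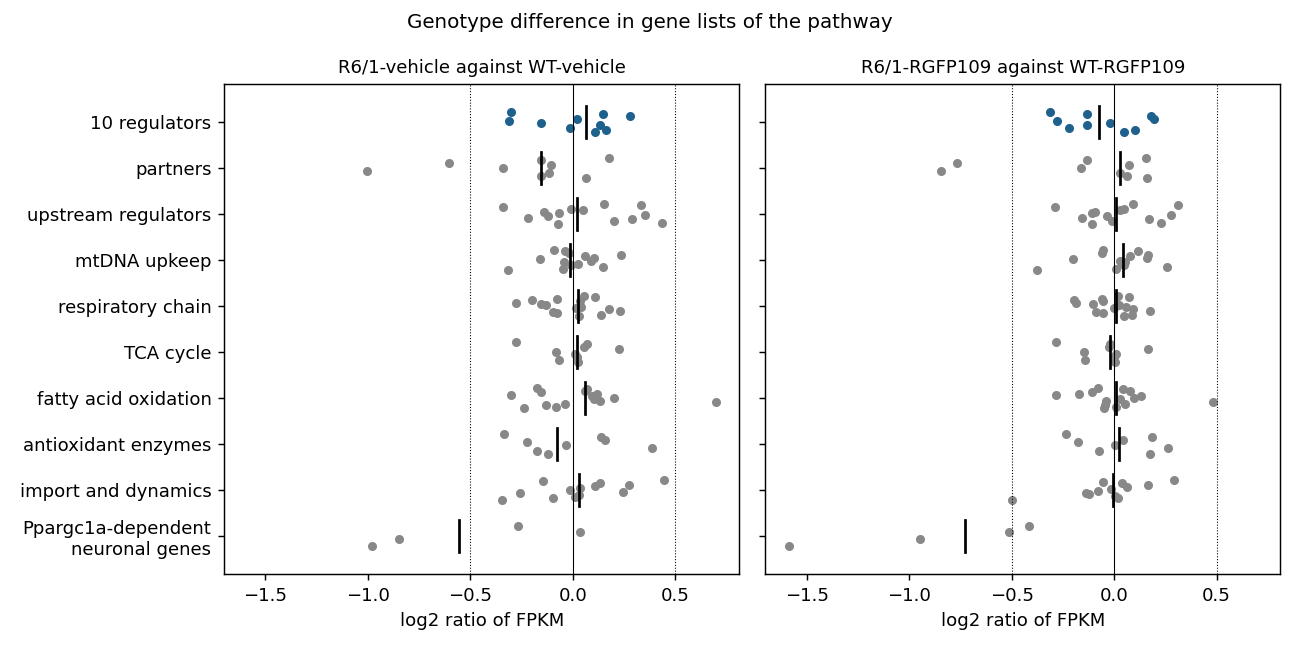
Log2 ratios of R6/1 over WT with vehicle (left) and with RGFP109 (right) for the 10 regulators (blue) and the genes of 9 lists of the pathway (grey), for genes with a mean of at least 1 FPKM; black bars are list medians and dotted lines mark ±0.5. The medians lie between -0.16 and 0.063 with vehicle and between -0.075 and 0.043 with RGFP109, except those of the Ppargc1a-dependent neuronal genes at -0.56 and -0.73.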

How the data were processed

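Striatal RNA of 24 mice was sequenced, and per the labels the authors used STAR 2.5.0b, Cufflinks 2.2.1 and Cuffdiff on mm10. The authors deposited 6 Cuffdiff tables with 1 FPKM value per group, pooled over its libraries and scaled within the pair; their fold change, test statistic, p-value and q-value columns hold the authors' own comparisons and were not used. Depth per library is unknown, so no interval is given. All 6 tables were restricted to their 24340 shared genes. Log2 ratios used a pseudocount of 0.05 FPKM, which understates changes of low genes, and a gene entered counts at a mean of at least 1 FPKM over both groups. Loci are those of the tables, with 1 added to the start. Strand use in counting is not given in the sources used here, so reads of overlapping genes cannot be told apart.

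The members and gene lists were chosen with earlier results of these data known. Named were the 10 members, of each list every gene past the minimum and up to 4 with the largest ratio for R6/1-vehicle against WT-vehicle, and the 5 genes most like Ppargc1a; some genes under this rule are not reported here. The ratio code was tested on simulated data with 200 genes changed by set factors and no noise, which checks the arithmetic only. Alternatives covered the pseudocount, the filter, centring, the minimum and the tables used. Python 3.11.15, numpy 2.4.6, pandas 2.3.3 and matplotlib 3.10.9 were used.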

Additional observations from a re-analysis of the deposited data

How the results depend on the processing

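No member was past the minimum under another pseudocount, no filter on low values, centring on the median of all genes, a minimum of 1, or ratios taken indirectly through another group. With a minimum of 0.25, where the counts were larger by construction, the count was 3 for R6/1-vehicle against WT-vehicle (38.1% of all genes were past it), 2 for R6/1-RGFP109 against WT-RGFP109 (32.6%) and 1 for R6/1-RGFP109 against WT-vehicle (37.6%), and it stayed at 0 for both treatment comparisons. The first 2 of these counts include Ppara, which reached 1 FPKM there only through its WT value. The median of the members stayed within 0.1 of its main value in each comparison, from 0.057 to 0.069 with vehicle and from -0.086 to -0.062 with RGFP109 between genotypes. Of 300 values of single members, 3 moved by more than 0.1, all of Ppara with a pseudocount of 1 FPKM, and 2 changed sign, both of Pprc1 for R6/1-RGFP109 against R6/1-vehicle (-0.0011). Since many of the 300 come from settings that could hardly move a ratio, this tally is no measure of stability. No paired analysis was possible because the files hold 1 pooled value per group, and for the same reason no library could be left out in turn. Differences smaller than the unknown spread between mice cannot be told from it.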
